A study of Rattus norvegicus with 44 samples.

Results

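The comparison sets the liver of rats given low doses of crude MCHM against the liver of rats given vehicle. MCHM, 4-methylcyclohexanemethanol, is a cyclic alcohol used to wash coal, and the crude product is a mixture of it with related compounds. The members are 15 of the 44 arrays of the series, chosen by organ and dose in their titles: 11 liver arrays at 0.1, 1 or 10 mg/kg and 4 liver arrays at 0 mg/kg. The 11 comprise 3 arrays from the 0.1 mg/kg group and 4 from each of the 1 and 10 mg/kg groups. All rats were male Harlan Sprague Dawley, an outbred stock, aged 6 to 8 weeks at assignment. Every rat received corn oil by gavage at 5 mL/kg on 5 days, without MCHM in the vehicle group, and was killed on the following day. The other liver arrays, at 100, 300 and 500 mg/kg, enter the main fit and so the estimate of the spread behind every standard error, p-value and interval. Otherwise they and the 17 kidney arrays only stand beside the low doses for comparison. Rats were housed 5 to a cage, and the labels do not say which rats shared one. The submitters left out arrays with batch effects before deposit, so the dose groups are what remained. The labels call the arrays of a group biological replicates.

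The liver meets a swallowed chemical first, through the portal vein, and its hepatocytes oxidise and conjugate it. Foreign compounds that activate nuclear receptors such as PXR, CAR and PPARA raise cytochrome P450 and fat oxidation transcripts in these cells. Shortage of amino acids or stress in the endoplasmic reticulum acts through another route, the translation of the factor ATF4, whose targets import amino acids, make serine and asparagine, and charge transfer RNAs. Feeding state moves many of the same liver genes, among them *Fgf21*, *Scd* and *Pdk4*.

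The values are log2 expression values per probe set, so a difference of 1 is a factor of 2. Differences are low dose minus vehicle unless stated, SE is limma's standard error, and a change was called at an adjusted p under 0.05 over 31042 probe sets. Across probe sets, pairs of the 15 arrays correlated at r = 0.9906 to 0.9936, and the median was 0.9918 between low-dose and vehicle arrays and 0.9917 within the vehicle group. Of 11 measured hepatocyte markers, 10 were higher in every one of the 15 liver arrays than in every one of 9 kidney arrays of the same doses, by a list median of 9.24. Of 9 kidney markers, 8 were lower in every liver array. The hepatocyte list differed between low doses and vehicle by a median of -0.01.

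One vehicle array stood apart. *Xist*, the RNA that coats an inactive X chromosome and is absent from normal male cells, has 4 probe sets, which read 8.25 to 11 in vehicle replicate 2 and 2.38 to 3.47 in the other 14 arrays. *Eif2s3y*, a gene of the Y chromosome, read 9.26 in that array and 9.07, 9.36 and 9.19 in vehicle replicates 1, 3 and 4. The array thus carried both a female and a male transcript under a male label. Median levels of mesothelial and capsule markers were also 0.68 above the vehicle mean in it. Results below are therefore also given without vehicle replicate 2. Without it, 0 probe sets were called by limma in the pooled comparison, 1647 had an unadjusted p under 0.05, and the smallest adjusted p was 0.518.

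No transcript passed the test at low doses. In the pooled comparison limma called 0 of 31042 probe sets (0% of those tested), and the smallest adjusted p was 0.266. An unadjusted p under 0.05 was reached by 1742 probe sets (5.61%), 985 higher (3.17%) and 757 lower (2.44%), where a uniform distribution of p would give 1552.1. The same test called 0 probe sets (0%) at 0.1 mg/kg, with 1582 at an unadjusted p under 0.05 (5.1%) and a smallest adjusted p of 0.111. It called 0 (0%) at 1 mg/kg, with 1565 unadjusted (5.04%) and a smallest adjusted p of 0.443. It called 0 (0%) at 10 mg/kg, with 1724 unadjusted (5.55%) and a smallest adjusted p of 0.551. The 3 dose comparisons share the 4 vehicle arrays, so their values are set side by side here and not compared with each other through them.

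The arrays limited the size of change that could have been seen. The 95% interval of the pooled difference had a median half-width of 0.209 on the log2 scale. For 30925 probe sets (99.6%) the whole interval lay within 2-fold of no difference, and for 94.2% within 0.5 on the log2 scale. For single doses the median half-width was 0.273 at 0.1 mg/kg and 0.253 at 1 and at 10 mg/kg. Only 80 probe sets had a pooled difference above 0.5 in size and 13 above 1. Over 14217 named genes, each represented by its brightest probe set, the median pooled difference was 0.006 and 52.8% were above 0.

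The 3 low doses were also compared with each other, in contrasts that leave out the vehicle means while the vehicle arrays still enter the estimate of the spread. A moderated F test among 0.1, 1 and 10 mg/kg called 0 probe sets (0%) in limma, with 1467 at an unadjusted p under 0.05 (4.73%). The direct comparison of 10 with 0.1 mg/kg called 0 (0%), with 1102 at an unadjusted p under 0.05 (3.55%). By contrast, 500 mg/kg minus the pooled low doses called 155 probe sets (0.499%), of which 101 rose and 54 fell, and 3473 (11.2%) had an unadjusted p under 0.05. Leaving out a 500 mg/kg array lowered that count to between 27 and 101.

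**Figure D1:**
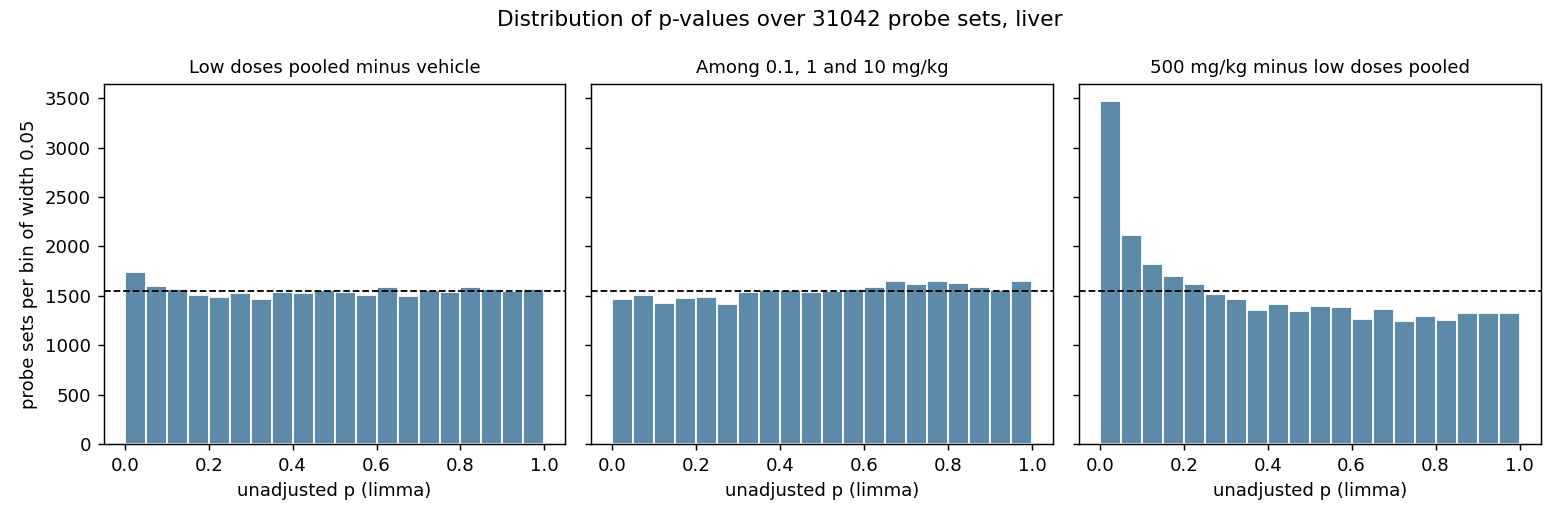
Number of probe sets (vertical axis) by unadjusted limma p in bins of width 0.05 (horizontal axis), for low doses pooled minus vehicle, for the test among 0.1, 1 and 10 mg/kg, and for 500 mg/kg minus the pooled low doses, all in liver. The dashed line is the count per bin under a uniform distribution, 1552.1; the first bin holds 1742, 1467 and 3473 probe sets.

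The named genes closest to the threshold are given next as values, none of which passed. They were the 10 genes in each direction whose pooled p was smallest, each through its probe set with the smallest p. Their pooled differences ran from 0.21 to 0.55 upward and from -0.29 to -0.78 downward, with adjusted p between 0.418 and 0.718 in limma. All 11 low-dose arrays lay above all 4 vehicle arrays for 26 probe sets (0.0838% of those tested) and below them for 21 (0.0677%). Over genes, each at its brightest probe set, the counts were 14 (0.0985%) and 9 (0.0633%). Exchangeable labels would give each arrangement in 1 of 1365 assignments, a share of 0.000733, and all these counts are near that share. Of the 20 named genes, the named probe sets of *Aen* and *Gpr149* were among the 26 probe sets. Those of *Kcnj15*, *Timp3*, *Ntn1*, *Plppr3*, *Spats2*, *Ncr3* and *Semg1* were among the 21. The genes were chosen by p on the same arrays, so the lack of overlap adds no support.

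*Kcnj15*, an inwardly rectifying potassium channel, had the smallest p of all named genes. It read 5.55, 5.62, 5.73 and 5.73 in the vehicle arrays and 4.22, 4.40 and 4.88 at 0.1 mg/kg. The values were 5.20, 5.38, 5.45 and 5.07 in the 1 mg/kg arrays and 4.09, 5.00, 4.90 and 5.10 in the 10 mg/kg arrays. Every low-dose array was below every vehicle array, with the lowest values at 0.1 and 10 mg/kg. The pooled difference was -0.78 (SE 0.16, limma adjusted p = 0.418), and it was -0.79 without vehicle replicate 2. By dose it was -1.16, -0.38 and -0.89, and the test among doses gave a limma adjusted p of 1. The gene's other probe set differed by -0.12. At 500 mg/kg the difference from vehicle was -0.81 (limma adjusted p = 0.083).

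*Timp3*, an inhibitor of matrix metalloproteinases, read 4.51, 4.60, 4.33 and 4.33 in vehicle liver and from 3.31 to 4.21, median 3.95, over the low doses. The groups did not overlap, and the pooled difference was -0.51 (SE 0.11, limma adjusted p = 0.532), or -0.46 without vehicle replicate 2. Its 3 other probe sets differed by -0.10, -0.03 and 0.25. *Ntn1*, which encodes the guidance protein netrin-1, read 4.82, 4.75, 4.70 and 4.94 in vehicle liver and from 4.16 to 4.59, median 4.29, over the low doses. These groups did not overlap either. Its pooled difference was -0.46 (SE 0.10, limma adjusted p = 0.532), nearly the same at each dose at -0.51, -0.44 and -0.45, and -0.48 without vehicle replicate 2. Its 2 other probe sets differed by -0.09 and -0.01.

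*Plppr3*, a membrane protein related to lipid phosphate phosphatases, differed by -0.40 (SE 0.09, limma adjusted p = 0.532), with low-dose arrays at 5.80 to 6.30 below vehicle arrays at 6.34 to 6.65. *Spats2* differed by -0.33 at each of 0.1 and 1 mg/kg and by -0.34 at 10 mg/kg. Its other, brighter probe set differed by -0.04 pooled. *Ncr3*, an activating receptor of natural killer cells, differed by -0.36 and *Semg1*, a semen protein, by -0.37. *Sdsl*, a serine dehydratase relative, differed by -0.35, *Pnisr* by -0.33 and *Klhl32* by -0.29. For *Pnisr*, the 2 other probe sets differed the opposite way, by 0.04 and 0.17.

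*Aen*, a nuclease gene that p53 switches on, had the smallest p among genes that were higher. It read 6.58, 6.61, 6.71 and 6.74 in the vehicle arrays, and 6.96, 7.31 and 6.93 at 0.1 mg/kg. The values were 6.88, 6.84, 6.92 and 6.86 in the 1 mg/kg arrays and 7.01, 7.19, 7.21 and 7.08 in the 10 mg/kg arrays. The groups did not overlap, and the 1 mg/kg arrays lay nearest to vehicle. The pooled difference was 0.36 (SE 0.08, limma adjusted p = 0.532), 0.34 without vehicle replicate 2 and 0.32 at its other probe set. At 500 mg/kg the difference was 0.09. *Gpr149*, an orphan receptor, read 2.87 to 3.02 in vehicle liver and 3.04 to 3.54 over the low doses, near the bottom of the array's range of 1.80 to 14.85.

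*Utp25*, a factor that processes ribosomal RNA, read 6.46, 6.33, 6.39 and 6.30 in vehicle liver and 6.45 to 6.88, median 6.80, at low doses. It differed by 0.37 (SE 0.08, limma adjusted p = 0.532), and 10 of 11 low-dose arrays were above the highest vehicle array. *Cars1*, the cysteinyl-tRNA synthetase, differed by 0.39 at its named probe set (SE 0.09, limma adjusted p = 0.718), and by 0.23, 0.20 and -0.05 at the others. *Wdr77*, a partner of the arginine methyltransferase PRMT5, differed by 0.49 at 0.1 mg/kg, 0.07 at 1 mg/kg and 0.34 at 10 mg/kg. Its pooled exact permutation p was 0.022, and 0.0824 without vehicle replicate 2, and it adds no independent support since the gene was chosen on the same arrays. *Zik1* differed by 0.55, *Pla2g4e*, a phospholipase, by 0.36, *Tmem259* by 0.31, *Rnf111*, a ubiquitin ligase of TGF-beta signalling, by 0.29 and *Nudt4*, an inositol phosphate phosphatase, by 0.21. The other, brighter probe set of *Tmem259* differed by 0.01.

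**Figure D2:**
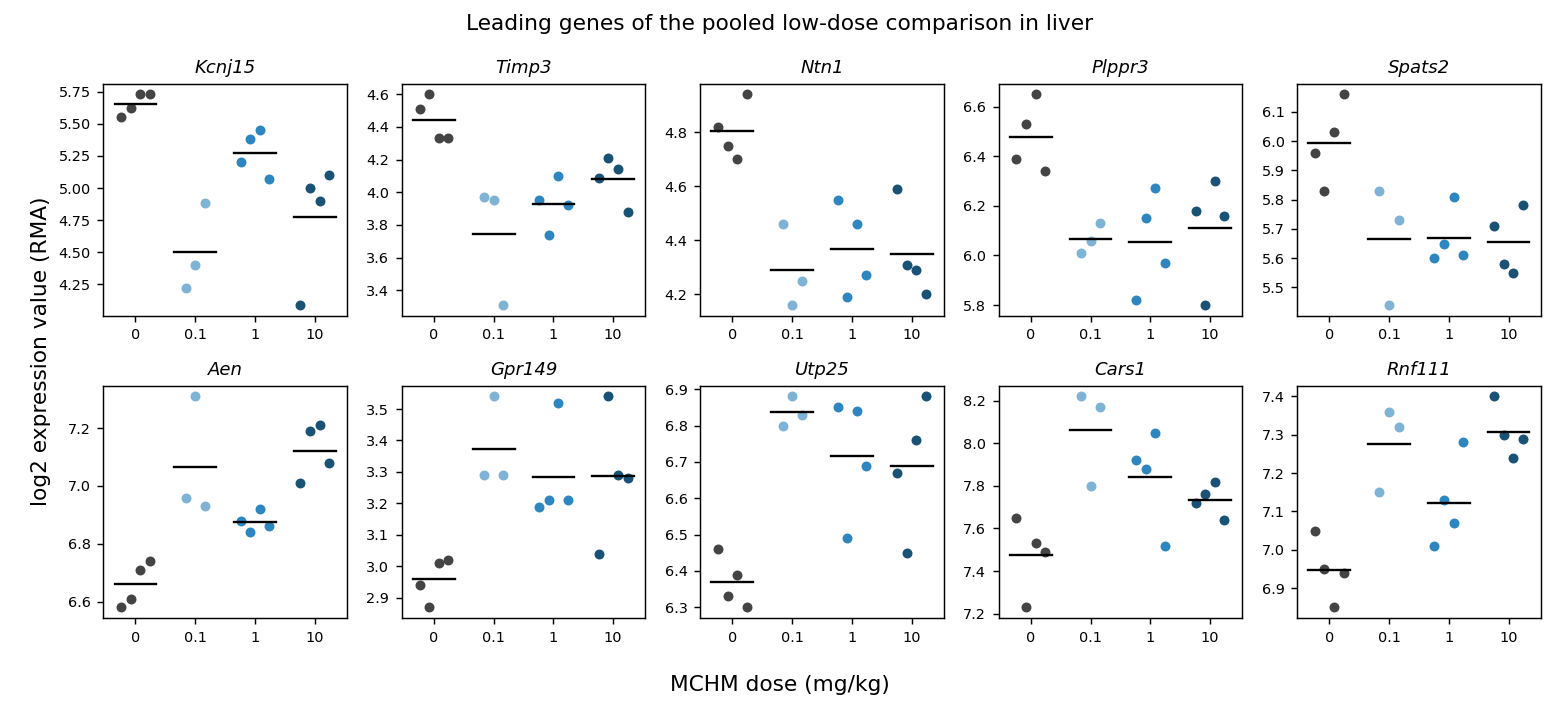
Log2 expression value (vertical axis, own scale in each panel) by MCHM dose in mg/kg (horizontal axis) for 10 of the genes with the smallest pooled p, each at the probe set with the smallest p. Points are arrays and lines are group means; all 11 low-dose arrays are below the 4 vehicle arrays for *Kcnj15*, *Timp3*, *Ntn1*, *Plppr3* and *Spats2* and above them for *Aen* and *Gpr149*.

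Probe sets without a gene symbol led the whole table. The probe set 1386479_at read 3.41, 3.61, 3.38 and 3.59 in vehicle liver and 3.75 to 4.44, median 3.92, over the low doses, a difference of 0.50 (SE 0.09, limma adjusted p = 0.266). The probe set 1396253_at read 4.64, 4.81, 4.32 and 5.17 in vehicle liver and 5.02 to 5.66, median 5.37, over the low doses. Its difference was 0.62, with 0.78, 0.37 and 0.74 at 0.1, 1 and 10 mg/kg. Vehicle replicate 4 was its highest vehicle array, and without that array the pooled difference was 0.76 with a limma adjusted p of 0.0228, the only call of the pooled comparison in any fit that left out an array.

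At single doses the named genes had the following values, again with none called. They were chosen by p on these arrays. The share of all probe sets without overlap at a single dose is not given here, so such a lack of overlap adds no support. At 0.1 mg/kg, *Txnrd1*, the cytosolic thioredoxin reductase and a target of the antioxidant factor NRF2, read 9.76, 9.96 and 9.70 against 9.36, 9.38, 9.35 and 9.43 in vehicle liver. The 0.1 mg/kg arrays were all above vehicle, by 0.42 (limma adjusted p = 0.399), while 1 and 10 mg/kg differed by 0.12 and 0.22. *Kti12*, a cofactor of transfer RNA modification, differed by 0.54, 0.09 and 0.45 at 0.1, 1 and 10 mg/kg. *Zfhx2* differed by 0.50 at 0.1 mg/kg, *Pcsk5* by -0.56, *Cdcp1* by -0.69 and *Rnf19b* by -0.57. The other probe sets of *Zfhx2*, *Pcsk5* and *Cdcp1* did not share the pooled direction of the named one.

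At 1 mg/kg, *Cyp26a1*, the enzyme that breaks down retinoic acid, read 4.94, 5.42, 5.07 and 4.94 against 4.48, 4.26, 4.55 and 4.89 in vehicle liver. All 4 were above vehicle, by 0.55 (limma adjusted p = 0.866), with 0.15 and 0.03 at 0.1 and 10 mg/kg. *Fbxl4* differed by 0.55 and *Icos* by 0.46 at this dose, and *Psd* by -0.53, *Galr1* by -0.45 and *Galnt10* by -0.39. The other probe set of *Fbxl4* differed by -0.14 pooled against 0.38 at the named one, and that of *Galnt10* by 0.05 against -0.17. At 10 mg/kg, *Eci1*, an isomerase of mitochondrial fat oxidation, differed by 0.47, *Tra2a*, a splicing factor, by 0.57 and *Timm8a1*, a mitochondrial import protein, by 0.34. The other probe set of *Eci1*, a dim one at 3.75, differed by -0.31 pooled against 0.31 at the named one. That of *Tra2a* differed by 0.08 against 0.34. *Aldh1b1*, a mitochondrial aldehyde dehydrogenase, read 6.79, 7.79, 6.64 and 7.14 at 10 mg/kg against 7.94, 7.96, 8.39 and 7.96 in vehicle liver. It was below vehicle in all 4, by -0.97 (limma adjusted p = 0.676), and differed by -0.81 at 0.1 mg/kg but by -0.07 at 1 mg/kg. *Rwdd2a* differed by -0.40 and *Gucy2f* by -0.41 at 10 mg/kg. As for *Txnrd1*, the lack of overlap of *Cyp26a1* and *Aldh1b1* adds no support, since these genes were chosen by p on the same arrays.

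The genes with the smallest p among the 3 low doses were *Eva1a*, *Gabpb1*, *Exog* and *Wdr77*, each with a limma adjusted p of 1. *Eva1a*, an autophagy gene, read 8.80, 8.64 and 8.60 in the 0.1 mg/kg arrays, 8.86, 9.04, 8.97 and 9.12 in the 1 mg/kg arrays and 8.49, 8.50, 8.24 and 8.49 in the 10 mg/kg arrays. The 1 mg/kg arrays were above those of both other low doses, which adds no support since the gene was chosen by p on these arrays. *Exog*, a mitochondrial nuclease, was lowest at 1 mg/kg on average, with differences from vehicle of 0.24, -0.30 and -0.09. Between 10 and 0.1 mg/kg, *Cdcp1* differed by 0.67, *Ckap4* by 0.59 and *Fgd2* by 0.54, while *Chct1* differed by -0.59, *Gabpb1* by -0.44 and *Cdc25a* by -0.44.

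Of the gene lists, that of ATF4 and the amino acid response differed most from vehicle. Its 26 measured members had a median pooled difference of 0.30, and 23 were above 0, beside 0.006 and 52.8% over all genes. None passed the adjusted test, 7 of 26 had an unadjusted p under 0.05 upward and 0 downward, where 3.55% of all genes were past that value upward and 2.09% downward. The list median was 0.36 at 0.1 mg/kg, 0.10 at 1 mg/kg and 0.44 at 10 mg/kg. The list was written with earlier results of these data known, so its direction is not independent evidence.

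The spread of this list among vehicle arrays was wide. Its median member deviated from the vehicle mean by -0.18, 0.00, 0.05 and 0.09 in vehicle replicates 1 to 4. It deviated by 0.21, 0.55 and 0.40 at 0.1 mg/kg and by 0.63, 0.28, 0.29 and 0.36 at 10 mg/kg. At 1 mg/kg it deviated by 0.20, 0.33, 0.07 and -0.09, overlapping vehicle, while every array at 0.1 and 10 mg/kg lay above all 4 vehicle arrays. The share of lists that separate from vehicle at a single dose is not given here, so this separation adds no support. Without vehicle replicate 1, the lowest vehicle array for the ATF4 list, the pooled list median was 0.17 in place of 0.30. Without vehicle replicate 2 it was 0.27, and the 7 members with an unadjusted p under 0.05 upward became 4.

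**Figure D3:**
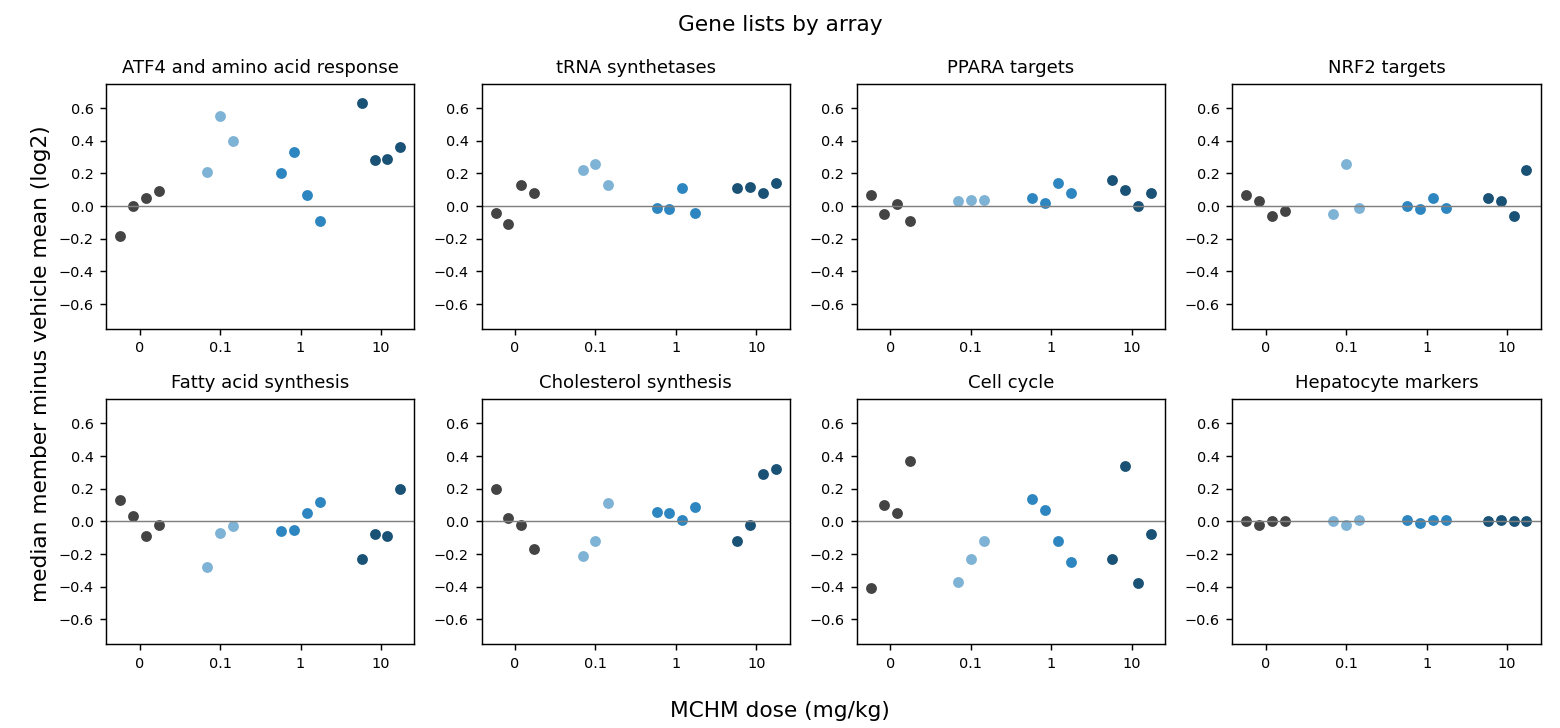
Median over the members of a gene list of the deviation from the vehicle mean, on the log2 scale (vertical axis), by MCHM dose in mg/kg (horizontal axis), for 8 lists; each point is an array. The ATF4 list lies between 0.21 and 0.63 at 0.1 and 10 mg/kg, whereas the hepatocyte list stays within 0.02 of 0 in every array.

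Promoter stretches of these genes are shown because the pattern TGATGNAA, the core of the C/EBP-ATF response element, is where ATF4 is known to bind amino acid response genes. The pattern was searched on both strands in the 250 bases before each start in the RefSeq promoters of rat assembly GRCr8, where N is any base. It occurred in 1139 of 33469 promoters (3.4%), in 5 of 24 of the ATF4 list (20.8%) and in 5 of 17 tRNA synthetases (29.4%). The whole set counts every promoter and the lists a single promoter per gene, so the shares are not strictly alike. The ATF4 list was made of response genes of that factor, and genes that charge transfer RNAs are among its known targets too. The lists were also written with earlier results of these data known, so neither share is independent support. The match is a description of letters, and promoters without it may hold other forms. The synthetases *Nars1*, *Mars1* and *Tars1* also hold a match, are not shown, and differed by 0.26, 0.16 and 0.03 pooled. Capitals mark the pattern, read on the opposite strand in all stretches shown but that of *Slc7a1*, and each stretch is written 5′ to 3′ on its gene's strand.
Slc7a1: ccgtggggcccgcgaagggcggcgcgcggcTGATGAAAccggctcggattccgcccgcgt
Trib3: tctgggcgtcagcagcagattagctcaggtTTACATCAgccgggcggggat
Fgf21: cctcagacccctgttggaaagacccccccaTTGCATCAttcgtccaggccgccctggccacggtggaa
Chac1: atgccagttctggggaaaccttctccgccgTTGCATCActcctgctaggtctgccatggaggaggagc
Nupr1: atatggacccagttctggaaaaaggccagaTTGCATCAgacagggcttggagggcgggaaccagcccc
Aars1: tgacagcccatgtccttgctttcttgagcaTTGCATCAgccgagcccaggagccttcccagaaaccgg
Iars1: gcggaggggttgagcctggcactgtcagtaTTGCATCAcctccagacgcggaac
The *Slc7a1* stretch is chr12:11664428-11664487 on the plus strand and the *Trib3* stretch chr3:161275534-161275584 on the minus strand. The *Fgf21* stretch is chr1:105221482-105221549 and the *Nupr1* stretch chr1:190645919-190645986, both on the minus strand. The *Chac1* stretch is chr3:126795934-126796001 and the *Aars1* stretch chr19:55908340-55908407, both on the plus strand, and the *Iars1* stretch is chr17:15193653-15193706 on the minus strand.

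Among amino acid carriers, *Slc3a2*, the CD98 subunit that brings exchangers of amino acids to the cell surface, read 9.45, 9.39, 9.53 and 9.57 in vehicle liver. It read 9.92, 10.05 and 9.88 in the 0.1 mg/kg arrays, 9.66, 10.02, 9.79 and 9.30 in the 1 mg/kg arrays and 10.19, 9.79, 9.91 and 9.88 in the 10 mg/kg arrays. Only 1 mg/kg replicate 4 was not above all vehicle arrays, and it was below them. The pooled difference was 0.37 (SE 0.11, limma adjusted p = 0.718), and 0.34 without vehicle replicate 2. *Slc7a1*, the cationic amino acid carrier with the promoter match on its own strand, read 5.63, 5.95, 5.75 and 5.67 in vehicle liver and 5.88 to 6.72, median 6.18, at low doses. Its difference was 0.48 (SE 0.14, limma adjusted p = 0.718), with 0.66, 0.32 and 0.50 by dose and 10 of 11 arrays above the highest vehicle array. *Slc38a2*, a sodium-coupled carrier of neutral amino acids, differed by 0.44, and *Slc7a5*, a partner of *Slc3a2*, by 0.15.

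Among synthesis enzymes, *Psat1*, of the serine pathway, read 6.84, 7.47, 8.04 and 8.05 in vehicle liver and 6.77 to 9.16, median 8.35, at low doses. The low-dose array below all vehicle arrays was 1 mg/kg replicate 4, and 9 of 11 lay above the highest vehicle array. The pooled difference was 0.72 (SE 0.30, limma adjusted p = 0.861), and 0.47 without vehicle replicate 1. *Asns*, asparagine synthetase, differed by 0.87 at 0.1 mg/kg, 0.00 at 1 mg/kg and 0.65 at 10 mg/kg, and its vehicle arrays ran from 6.75 to 7.97. *Phgdh*, which starts serine synthesis, differed by 0.41 pooled, *Mthfd2*, of mitochondrial folate metabolism, by 0.30 and *Aldh18a1*, of proline synthesis, by 0.30.

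Among regulators and stress genes, *Trib3*, a pseudokinase that restrains ATF4 and AKT, read 7.15, 7.48, 8.15 and 7.72 in vehicle liver. It read 7.69, 9.22 and 9.13 in the 0.1 mg/kg arrays, 8.06, 8.02, 7.67 and 7.61 in the 1 mg/kg arrays and 10.20, 8.51, 9.45 and 8.11 in the 10 mg/kg arrays. High arrays occurred at 0.1 and 10 mg/kg, and the 1 mg/kg arrays lay within the vehicle range. The pooled difference was 0.89 (SE 0.37, limma adjusted p = 0.861), and its 2 other probe sets differed by 0.91 and 0.62. *Fgf21*, a liver hormone of amino acid shortage and fasting, read 6.50, 7.48, 7.68 and 7.62 in vehicle liver, with low-dose arrays from 7.47 to 10.34, median 8.62. The difference was 1.32 (SE 0.55, limma adjusted p = 0.865), and 1.04 without vehicle replicate 1. *Ddit4*, an inhibitor of mTORC1, differed by 0.95 and *Chac1*, which degrades glutathione, by 0.93. *Atf4* itself differed by 0.27 and *Ddit3*, the factor CHOP, by 0.40. *Cth*, *Vldlr* and *Stc2* were the members below 0, at -0.03, -0.07 and -0.09.

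**Figure D4:**
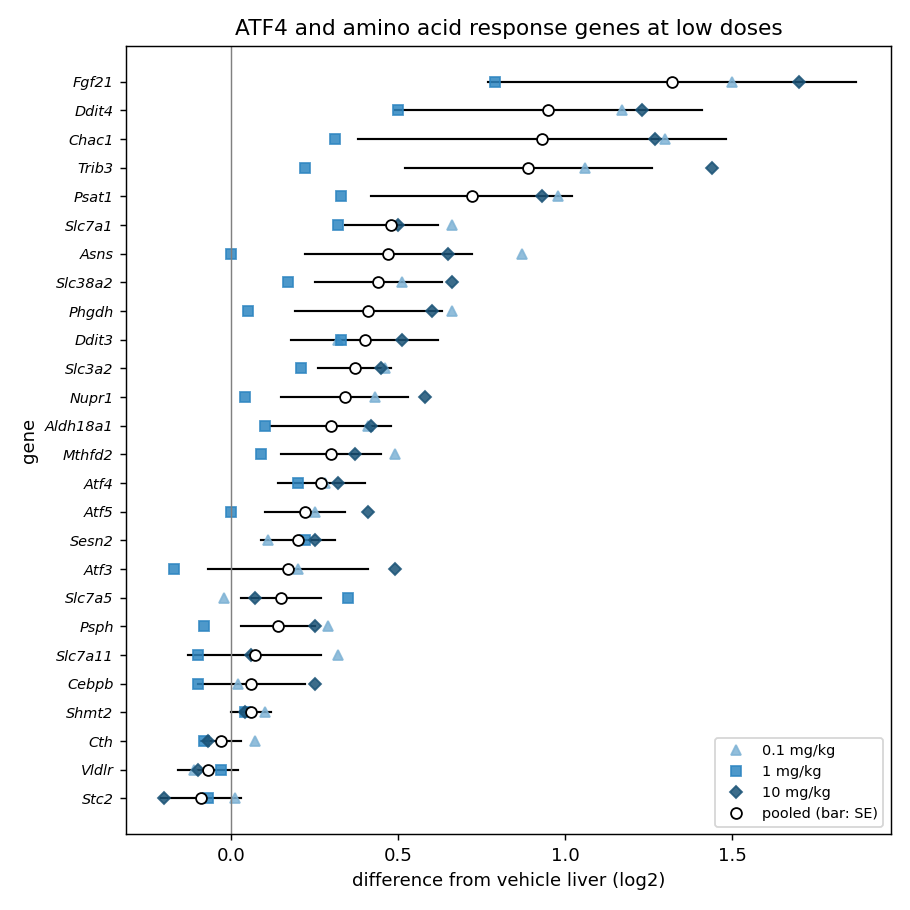
Difference from vehicle liver on the log2 scale (horizontal axis) for the 26 measured ATF4 list genes (vertical axis, ordered by the pooled value), with triangles, squares and diamonds for 0.1, 1 and 10 mg/kg and open circles for the pooled value with its standard error. The pooled value is above 0 for 23 genes, and the square for 1 mg/kg is at 0.00 for *Asns* and 0.22 for *Trib3*.

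The transfer RNA synthetases, which load amino acids onto their transfer RNAs, showed smaller differences. Of 19 measured, 15 were above 0 and 8 had an unadjusted p under 0.05 upward, 0 downward, and none passed the adjusted test. The shares over all genes were 52.8% above 0 and 3.55% past that p upward, and without vehicle replicate 2 the count of 8 was 2. Their median was 0.14 pooled, and 0.24, 0.00 and 0.14 at 0.1, 1 and 10 mg/kg. *Nars1*, for asparagine, read 9.49, 9.50, 9.81 and 9.80 in vehicle liver and 9.64 to 10.14, median 9.93, at low doses. The groups overlapped, with a difference of 0.26 (SE 0.08, limma adjusted p = 0.718), or 0.21 without vehicle replicate 2. *Yars1* differed by 0.47, 0.00 and 0.23 by dose, *Iars1* by 0.47, -0.01 and 0.27 and *Aars1* by 0.24, 0.04 and 0.19. Without vehicle replicate 2, the lowest vehicle array for *Yars1* and *Iars1* at 8.87 and 8.10, their pooled differences of 0.21 and 0.22 were 0.13 and 0.11. *Kars1*, *Vars1*, *Wars1* and *Farsb* were below 0, at -0.03, -0.03, -0.09 and -0.01.

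The largest differences by size rested mostly on single arrays or on arrays that fell into separate levels. These probe sets are named because their pooled difference exceeded 1, a choice made after their values were seen. *Abhd3*, a phospholipase of the abhydrolase family, read 7.35 and 7.57 in vehicle replicates 1 and 3, 3.29 and 3.45 in replicates 2 and 4, and 2.86 to 3.68 in the 11 low-dose arrays. Its pooled difference of -2.15 (SE 0.84, limma adjusted p = 0.845) rested on vehicle replicates 1 and 3, and it was -1.51 without the former and -1.44 without the latter. A probe set annotated *Ugt2b*, a steroid and bile acid glucuronosyltransferase family, read 13.10, 13.38 and 13.45 in vehicle replicates 1 to 3, 4.81 in replicate 4 and 12.95 to 13.41 at low doses. The difference of 2.00 became -0.13 without vehicle replicate 4, and a further *Ugt2b* probe set went from 1.34 to -0.17. The probe set 1370428_x_at, with several gene symbols, read 4.16, 5.02 and 4.16 in 0.1 mg/kg replicate 2, 1 mg/kg replicate 4 and 10 mg/kg replicate 3, and 9.57 to 10.86 in the other 12 arrays. *Inmt*, an amine methyltransferase, read 9.46, 7.38, 6.28 and 6.44 in vehicle liver and 7.01 to 9.52, median 8.77, at low doses. Its difference of 1.03 was 1.72 without vehicle replicate 1, the highest vehicle array.

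Among fat synthesis genes, *Scd*, the stearoyl-CoA desaturase, had the largest difference of a named enzyme. It read 10.38, 11.69, 10.89 and 12.61 in vehicle liver, and 9.16, 10.35 and 10.60 at 0.1 mg/kg. The values were 10.43, 10.59, 10.45 and 10.80 in the 1 mg/kg arrays and 9.59, 10.25, 9.04 and 11.56 in the 10 mg/kg arrays. The vehicle arrays spread widely and overlapped the low doses. The difference was -1.14 (SE 0.36, limma adjusted p = 0.718), -0.73 without vehicle replicate 4 and -1.04 without replicate 2. The 22 measured genes of fatty acid synthesis had a median of -0.06, 7 of them above 0. *Fasn*, fatty acid synthase, differed by -0.09, and *Srebf1*, the regulator of the pathway, by -0.03. The 21 cholesterol synthesis genes had a median of 0.04, with -0.08, 0.05 and 0.12 by dose.

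Among PPARA targets, 23 of 29 were above 0 with a median of 0.07, and 4 were higher and 1 lower at an unadjusted p under 0.05. Over all genes 52.8% were above 0, 3.55% higher and 2.09% lower, and without vehicle replicate 2 the counts for the list were 3 and 0. *Cyp4a3*, a fatty acid omega hydroxylase, read 11.43, 10.90, 10.87 and 10.90 in vehicle liver and 11.25 to 11.56, median 11.46, at low doses. Vehicle replicate 1 lay within the low-dose range and the other 3 below it. The difference was 0.39 (SE 0.13, limma adjusted p = 0.718), nearly equal by dose at 0.38, 0.42 and 0.38. *Pdk4*, which spares glucose during fasting, went the other way at -0.47, with -0.77, -0.51 and -0.21 by dose. *Ehhadh*, a peroxisomal fat oxidation enzyme, differed by 0.18, and by 0.31 without vehicle replicate 1 and 0.12 without replicate 4. *Cyp4a1* differed by 0.23, and by 0.15 without vehicle replicate 4.

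The 19 measured CAR and PXR targets had a median of 0.04, with 13 above 0. *Cyp3a9*, a P450 of this group, read 8.48, 7.63, 7.21 and 7.95 in vehicle liver and 7.63 to 9.45, median 8.58, at low doses. It differed by 0.66 (SE 0.27, limma adjusted p = 0.861), with overlapping groups, and by 0.59 without vehicle replicate 2. *Alas1*, the first enzyme of heme synthesis, differed by 0.33. The 21 NRF2 targets had a median of 0.00, with 13 above 0, beside 52.8% of all genes. At an unadjusted p under 0.05, 3 were higher, beside 3.55% of all genes, and 0 lower. The 3 were *Txnrd1*, *Srxn1* and *Blvrb*, at 0.24, 0.23 and 0.20. Other probe sets of *Srxn1* differed by 0.34 and, at a dim one, by -0.18. *Nqo1*, another NRF2 target, differed by 0.25, and by 0.42 without vehicle replicate 1, which read 7.95 against 7.22 to 7.34 in the other vehicle arrays. The 7 measured aryl hydrocarbon receptor targets had a median of 0.08, with 0.24, -0.01 and 0.13 at 0.1, 1 and 10 mg/kg. At 0.1 mg/kg 6 of 7 were above 0, beside 50.4% of all genes, and the list deviated by 0.25, 0.22 and 0.11 in those arrays, all above the vehicle arrays at -0.11 to 0.08. The list and dose were singled out on these arrays, so the lack of overlap adds no support. *Cyp1a1*, the classic member, differed by 0.09, with 0.30, 0.06 and -0.04 by dose.

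Of p53 targets 13 of 15 were above 0, with a median of 0.13, and *Aen* and *Cdkn1a*, the cell cycle inhibitor p21, had an unadjusted p under 0.05. Beside these stand the 52.8% above 0 and 3.55% higher over all genes, and without vehicle replicate 2 the count of 2 was 1. *Cdkn1a* differed by 0.51, 0.01 and 0.48 by dose. Cell cycle genes had a median of -0.13, with 4 of 33 above 0. The list deviated by -0.41, 0.10, 0.05 and 0.37 in the vehicle arrays, a range that held all 11 low-dose arrays at -0.38 to 0.34. Leaving out single arrays in turn moved its median to between -0.25 and -0.01. The heat shock list differed by a median of 0.10, 0.01 and 0.17 at 0.1, 1 and 10 mg/kg. At 10 mg/kg all 11 were above 0, beside 52.2% of all genes, and 6 had an unadjusted p under 0.05 upward, beside 3.39%. The list deviated by 0.18, 0.13, 0.25 and 0.18 in the 10 mg/kg arrays, all above the vehicle arrays at -0.05 to 0.04. This list and dose were also singled out on these arrays. The share of lists separating in this way is not given, so the separation adds no support. Interferon response genes had medians of -0.17, 0.07 and -0.28 by dose. At 10 mg/kg 2 of 19 were above 0 and 4 had an unadjusted p under 0.05 downward, beside 2.28% of all genes. That list deviated by -0.34 to -0.14 in the 10 mg/kg arrays, within the vehicle arrays at -0.49 to 0.25. None of these genes passed the adjusted test. The 23 lists other than cell type markers, ATF4 and synthetases had medians between -0.13 and 0.16. The upper end was the glucocorticoid list of 13 genes, which holds *Ddit4* too and ranged from 0.02 to 0.23 as arrays were left out.

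The 14 cell type marker lists had medians from -0.14 for cholangiocytes to 0.03. In bulk liver, fewer cells of a type and less RNA per cell cannot be told apart. All 12 stellate cell and fibroblast markers were below 0, with a median of -0.09 and *Col1a1*, a fibrillar collagen chain, at -0.30, while without vehicle replicate 2 the median was -0.06 and 10 were below 0. The cholangiocyte median was -0.02 without that array, whose own deviation was 0.21.

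The contrast of 500 mg/kg with the pooled low doses leaves out the vehicle mean, though the vehicle arrays enter its estimate of the spread, and a fit of only the arrays compared called 80 probe sets in place of 155. *Abhd1*, *Orm1*, *Bphl*, *Myh1*, *Fabp7* and *Cnrip1* were chosen for the size of p in that contrast. The other genes given for it were followed from earlier results of these data. The smaller low-dose differences of all these genes are therefore a description. *Abhd1*, a hydrolase, rose by 0.58 (limma adjusted p = 0.000284). Its low-dose arrays at 8.06 to 8.34 overlapped vehicle only through vehicle replicate 1 at 8.33, the other vehicle arrays reading 7.93, 8.03 and 7.88. Its low-dose difference from vehicle was 0.18, and 0.30 at its other probe set (limma adjusted p = 0.861 and 0.718). *Fabp7*, a fatty acid binding protein, fell by 0.47 between the low doses and 500 mg/kg (limma adjusted p = 0.00368). In low-dose liver *Fabp7* read 11.71 to 12.11, median 11.94, against 12.04, 12.18, 12.24 and 12.18 in vehicle liver. That difference was -0.25 (SE 0.08, limma adjusted p = 0.718), with -0.25, -0.20 and -0.29 by dose, and 10 of 11 arrays were below the lowest vehicle array.

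*Orm1*, the acute phase protein orosomucoid, rose by 0.71 at 500 mg/kg over the low doses (limma adjusted p = 0.00185), and *Bphl*, a valacyclovir hydrolase, rose by 0.40 (limma adjusted p = 0.0021). At low doses they differed from vehicle by -0.15 and -0.13. *Myh1*, a skeletal muscle myosin heavy chain by annotation, fell by 0.92 (limma adjusted p = 0.000275) and *Cnrip1* fell by 0.50 (limma adjusted p = 0.00375), with -0.16 and 0.06 at low doses. *Cyp3a23-3a1*, the main PXR-inducible P450 of the rat, rose by 0.68 (limma adjusted p = 0.00323) after a low-dose difference of -0.03, 95% interval -0.25 to 0.19. *Tm7sf2*, a sterol reductase, rose by 0.55 (limma adjusted p = 0.00323) after -0.03, interval -0.21 to 0.15.

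*Eci1* rose by 0.56 at 500 mg/kg over the low doses (limma adjusted p = 0.00368), where it differed from vehicle by 0.31, or 0.24 without vehicle replicate 2. The gene's other, dim probe set differed from vehicle by -0.31 at the low doses. *Serpina7*, the thyroxine-binding globulin, fell by 1.13 (limma adjusted p = 0.00388) after a low-dose difference of -0.32, or -0.19 without vehicle replicate 2. *A2m*, an acute phase inhibitor of proteases, fell by 1.05 (limma adjusted p = 0.0292) after -0.49. *Prdx4*, a peroxidase of the endoplasmic reticulum, fell by 0.32 (limma adjusted p = 0.00385) after -0.02. The ATF4 list had no member called between 500 mg/kg and the low doses. Its median there was -0.14, and *Slc3a2* and *Slc7a1* differed by -0.13 and -0.16 (limma adjusted p = 0.729 and 0.739). Against vehicle, the ATF4 list median was 0.43, 0.52 and 0.18 at 100, 300 and 500 mg/kg, with 0, 2 and 0 of 26 called. That of the transfer RNA synthetases was 0.22, 0.30 and 0.17, with 0, 6 and 0 of 19 called. The list differences were thus not particular to the low doses.

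**Figure D5:**
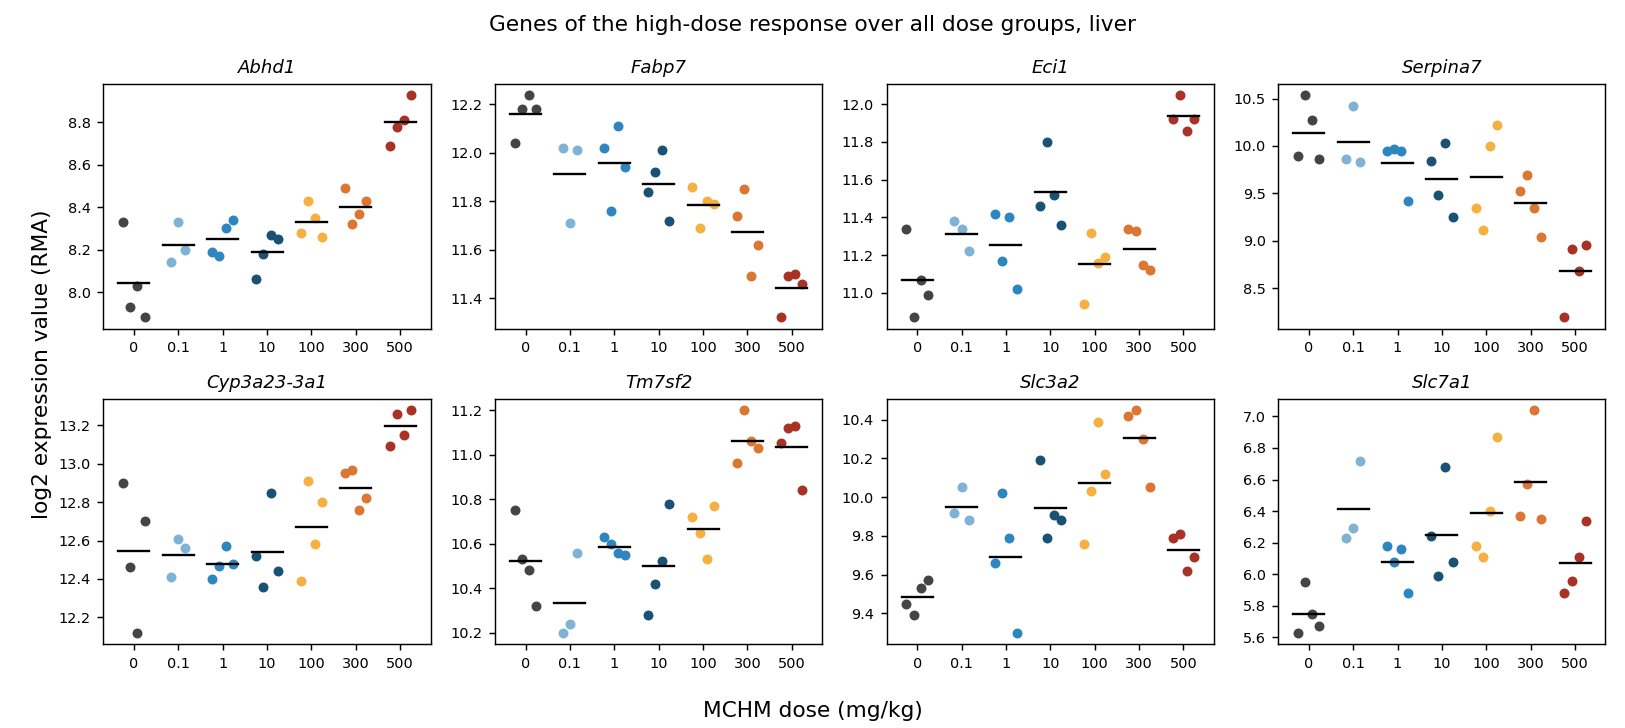
Log2 expression value (vertical axis, own scale in each panel) by MCHM dose in mg/kg over all 7 dose groups in liver (horizontal axis, spaced evenly and not to scale) for 8 genes; points are arrays and lines are group means. At 500 mg/kg *Abhd1*, *Eci1*, *Cyp3a23-3a1* and *Tm7sf2* are above the low doses and *Fabp7* and *Serpina7* below, while *Slc3a2* and *Slc7a1* differ from them by -0.13 and -0.16.

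The low-dose difference in liver was last compared with that in kidney, where 6 arrays at 0.1, 1 and 10 mg/kg and 3 vehicle arrays exist. The fit of all 44 arrays called 1 probe set (0.00322%), 1393739_at, without a symbol, at -1.23 (limma adjusted p = 0.00265), from -0.22 in liver and 1.01 in kidney, and 1618 (5.21%) had an unadjusted p under 0.05. The count depended on single kidney arrays, being 410 without kidney vehicle replicate 1 and 0 without kidney vehicle replicate 2 or 3. Of the named genes, *Ubxn4* had an organ difference of -1.39, *Cgnl1* -1.07 and *Cald1* -0.94, and their liver differences were -0.05, -0.04 and -0.09, with none passing the test. *Gstm7*, a glutathione transferase, differed by 0.29 in liver and -0.26 in kidney, *Asap1* by 0.12 and -0.46, and *Ifrd2* by 0.17 and -0.20. The ATF4 list had a median of -0.02 over the same doses in kidney, with 12 of 26 above 0, each gene at its liver probe set.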

How the data were processed

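RNA of 15 liver arrays (4 vehicle, 11 low dose) of an Affymetrix rat 3' array was described, within a fit of all 27 liver arrays. The deposited table holds log2 values that the authors made with RMA, per the submitters' processing notes. RMA software version, chip definition and joint or separate normalization of the organs were not given in the sources used here. RMA includes quantile normalization, so a shift of most transcripts would not be seen, and dim probe sets are compressed. Of 31099 probe sets 57 controls were left out. Of the rest 20826 have 1 symbol, 436 several and 9780 none, and 20758 symbols were updated by gene ID through RefSeq GRCr8. No background calls could be made. Some genes are not analysed here.

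A linear model of 7 dose groups (14 in the organ fit) was fitted with lmFit and eBayes of limma 3.58.1 under R 4.3.3. If liver and kidney arrays share animals, which the labels do not say, the organ fit does not account for it. Pooled low dose is the mean of 11 arrays minus that of 4. All p-values are two-sided, with the Benjamini-Hochberg method applied over 31042 probe sets. Permutation tests enumerated all 1365 assignments (364 without vehicle replicate 2), with 0.000733 the smallest p possible. A gene in a list is its brightest liver probe set. The scripts' test was checked on simulated data.

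Named are the 10 genes each way with the smallest p pooled, 3 each way at each dose, between 10 and 0.1 mg/kg, between 500 mg/kg and low doses, and between organs, 4 among doses, up to 4 per list, and genes followed from earlier results. The members and lists were chosen with earlier results of these data known.

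Arrays sharing a replicate number did not deviate together (r from -0.137 to 0.229, mean 0.004, 21 pairs), so no block was used. p-values measure the spread between these arrays, whose number limits the precision. Alternatives were a filter on dim probe sets, a repeated quantile normalization, fits of only the arrays compared or of the 11 low-dose arrays as 1 group, equal dose weights, a variance trend with robust priors, array weights, the median over a gene's probe sets, the replicate block and leaving out each array.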

Additional observations from a re-analysis of the deposited data

Results flagged for a closer look

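Within each dose group of 4 liver arrays, an array was singled out when its gap to the nearest other array was a larger share of the group's range than Dixon's 95% limit. Of 456 groups checked, 40 were. Chance gives about 1 in 20 for groups not picked on their values. Many genes checked here were picked for small p or large differences on these arrays, so the 40 cannot be set against that rate. Vehicle replicate 2 stood apart at all 4 *Xist* probe sets (8.25, 11, 8.81 and 9.12) and at the unnamed probe set 1375535_at (11.52, others 4.73 to 4.94). Vehicle replicate 1 stood apart for *Fgf21* (6.50), *Cyp4a3* (11.43), *Ehhadh* (11.25), *Nqo1* (7.95), *Alas1* (10.34) and *Lpin1* (8.59), being the lowest for *Fgf21* and the highest for the others. Vehicle replicate 3 did so for *Pnisr* (5.55), *Aldh1b1* (8.39) and *Gstm7* (7.94), and vehicle replicate 4 for *Cdkn1a* (8.15) and both *Ugt2b* probe sets (4.81 and 3.68).

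At 1 mg/kg the arrays apart were replicate 1 for *Cdc25a* (3.80), replicate 2 for *Kti12* (8.33) and *Abhd3* (3.62), replicate 3 for *Gpr149* (3.52) and *Klhl32* (3.80), and replicate 4 for *Ubxn4* (9.82), *Serpina7* (9.42) and the probe set 1370428_x_at (5.02). At 10 mg/kg they were replicate 1 for *Galr1* (3.04), *Ubxn4* (9.46) and *Ehhadh* (11.35), replicate 2 for *Pdk4* (9.20), replicate 3 for *Eva1a* (8.24) and 1370428_x_at (4.16), and replicate 4 for *Pnisr* (5.08).

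Among list medians, expressed as deviation from the vehicle mean, 10 mg/kg replicate 3 stood apart for AHR targets (0.24), p53 targets (-0.07) and stellate cell markers (-0.36), replicate 2 for hepatocyte markers (0.01) and replicate 4 for kidney markers (0.12). At 1 mg/kg, replicate 4 did so for amino acid catabolism and urea cycle genes (0.11) and thyroid hormone genes (-0.02), and replicate 2 for alcohol and aldehyde oxidation genes (-0.08).

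The low-dose difference of the probe set 1393739_at differed between liver and kidney by -1.23 on the log2 scale in the test of the difference itself (limma adjusted p = 0.00265).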

How the results depend on the processing

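The number of low-dose calls was 0 under every alternative to the pooled, single-dose and among-dose comparisons except when an array was left out, where it ranged from 0 to 1 for the pooled comparison, 0.1 mg/kg and 10 mg/kg and stayed 0 for 1 mg/kg, among doses and 10 against 0.1 mg/kg. The call was probe set 1396253_at without vehicle replicate 4 (adjusted p of 0.0228, 0.0393 and 0.0241 in limma) and *Kcnj15* at 0.1 mg/kg without 10 mg/kg replicate 1 (limma adjusted p = 0.0152). With the replicate number as a block the pooled count was 0 in limma, with 1900 at an unadjusted p under 0.05, the 500 mg/kg count 144 and the organ count 1. The 155 calls of 500 mg/kg against low doses became 373 with only the brighter probe sets, 80 in a fit of only the arrays compared and 390 with a variance trend and robust priors, and 27 to 164 as arrays were left out. The 1 organ call became 0 with only the brighter probe sets, 0 with only the arrays compared and 232 with array weights, and 0 to 410 as arrays were left out. The cause of these shifts was not tested. Signs turned for differences near 0: *Srebf1* read 0.00 with the replicate block, and as arrays were left out *Srebf1* ranged from -0.21 to 0.12, *Cyp3a23-3a1* from -0.17 to 0.09, *Tm7sf2* from -0.1 to 0.04, *Ccl5* from -0.14 to 0.02, *Prdx4* from -0.05 to 0.01 and *Uty* from -0.22 to 0.10. Of the checks on single genes and lists, 3517 were counted as unchanged. For genes this means the same direction and side of the threshold. For lists it means a median that shifted by no more than the list's standard deviation over the vehicle arrays. Sign was not part of the list rule, and the mesothelial and capsule median, counted as unchanged, ranged from -0.21 to 0.10. In 20 checks a list median moved further. Among single genes, 13 organ differences newly passed (with array weights or without a kidney array) and 11 differences turned sign. The permutation p of *Wdr77* was 0.0824 without vehicle replicate 2.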

Other observations

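Pooled over the low doses, heat shock genes had a median difference of 0.09, with 10 of 11 above 0, and genes of the unfolded protein response a median of -0.01, with 11 of 23 above 0. Circadian clock genes had a median of -0.12, with 6 of 18 above 0, and interferon response genes a median of -0.10, with 5 of 19 above 0. Oxidative phosphorylation genes had a median of -0.03, acute phase genes -0.01, bile acid genes 0.01 and genes of amino acid catabolism and the urea cycle 0.01. *Cyp7a1*, which catalyses the first step from cholesterol to bile acids, differed by 0.69 pooled and by 0.54, 1.32 and 0.17 at 0.1, 1 and 10 mg/kg. Its vehicle arrays ran from 8.72 to 10.55, and the pooled difference was 1.04 without vehicle replicate 1, 0.43 without replicate 2 and 0.46 without replicate 4. No member of these lists passed the adjusted test in limma.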
